A study of Apostichopus japonicus with 3 samples.

Results

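The splicing and RNA helicase genes of the sea cucumber Apostichopus japonicus were followed through aestivation, the summer dormancy of this animal, in its respiratory tree, the branched organ in which seawater and body fluid exchange gases. Members were the isotigs (assembled transcripts of a reference transcriptome) whose best protein match carries a name of splicing, the spliceosome, ribonucleoproteins, pre-mRNA, RNA helicases, the DEAD or DEAH box, RNA binding motif proteins or polyadenylation. Names of translation initiation factors and poly(A) binding proteins were left out. The rule found 92 isotigs of the 20991 with a read in any library, under 69 protein names, 18 of which covered several isotigs (41 isotigs in all). Poly(A) RNA of the respiratory tree was sequenced at 3 stages, non-aestivation, deep aestivation and arousal, with 1 library per stage, and the submitters used at least 15 individuals per stage. The sources used here do not say how the RNA of these individuals was combined. With 1 library per stage there is no replicate check. All intervals below are exact 95% intervals of counting error only, and no p-value is given. The reads carry no molecular identifiers, so copies made by PCR count more than once.

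Splicing removes introns from pre-mRNA in the spliceosome, which is built from small nuclear ribonucleoproteins (snRNPs), each a small RNA with its proteins, and from many further factors. SR proteins and heterogeneous nuclear ribonucleoproteins (hnRNPs) bind the transcript and steer which sites are used. RNA helicases of the DEAD and DEAH families spend ATP to rearrange RNA and RNA-protein contacts, in splicing and also in ribosome assembly, mRNA export and translation.

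Libraries held 0.941 M uniquely mapped reads (non-aestivation), 0.887 M (deep aestivation) and 0.963 M (arousal). Levels are given as RPKM, reads scaled by isotig length and library total, on which 1 read on an isotig of 1 kb was worth 1.06, 1.13 and 1.04 RPKM at the 3 stages in that order. Of the 92 isotigs, 80 had a read in every library, and 63 reached 20 reads in all 3 libraries together, the minimum for a comparison. The other 29 had 1 to 17 reads each and together 96 (non-aestivation), 67 (deep aestivation) and 82 (arousal) reads. Reads covered a median of 65.4% (non-aestivation), 47.1% (deep aestivation) and 51.2% (arousal) of the bases of the 63 isotigs. Gene names are those of the best match, most often the sea urchin Strongylocentrotus purpuratus (36 isotigs) or the acorn worm Saccoglossus kowalevskii (28 isotigs), and no member was matched to a sea cucumber protein. Roles below are those known from yeast and vertebrates. The gathered names held for splicing and RNA helicases with 6 exceptions, whose names lie outside pre-mRNA and helicase biology or name another kind of helicase: a dead end-like protein, an FHOS2L splicing variant, a SWI/SNF-related regulator with a DEAD/H box, a DDX11-like protein and both isotigs of a tRNA splicing endonuclease. These 6 had 44 (non-aestivation), 18 (deep aestivation) and 19 (arousal) reads.

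The 4 members with the highest level in non-aestivation were all hnRNPs. hnRNP A/B (isotig13634), a protein that coats nascent transcripts, reached 801 RPKM (non-aestivation), 391 RPKM (deep aestivation) and 1291 RPKM (arousal), the highest level of any member at each stage. The median level of the 63 isotigs was 33.5 RPKM (non-aestivation), 22.3 RPKM (deep aestivation) and 24.9 RPKM (arousal), beside 26.9, 21.0 and 19.3 RPKM over the 5686 tested isotigs with a protein match at the same 3 stages. The lowest level of an isotig stood in deep aestivation for 36 of 63 members (57.1%), against 37.2% of the isotigs with a protein match and 33.5% of all tested isotigs. The highest level stood in non-aestivation for 36 members (57.1%), against 57.0% of the isotigs with a protein match.

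**Figure D1:**
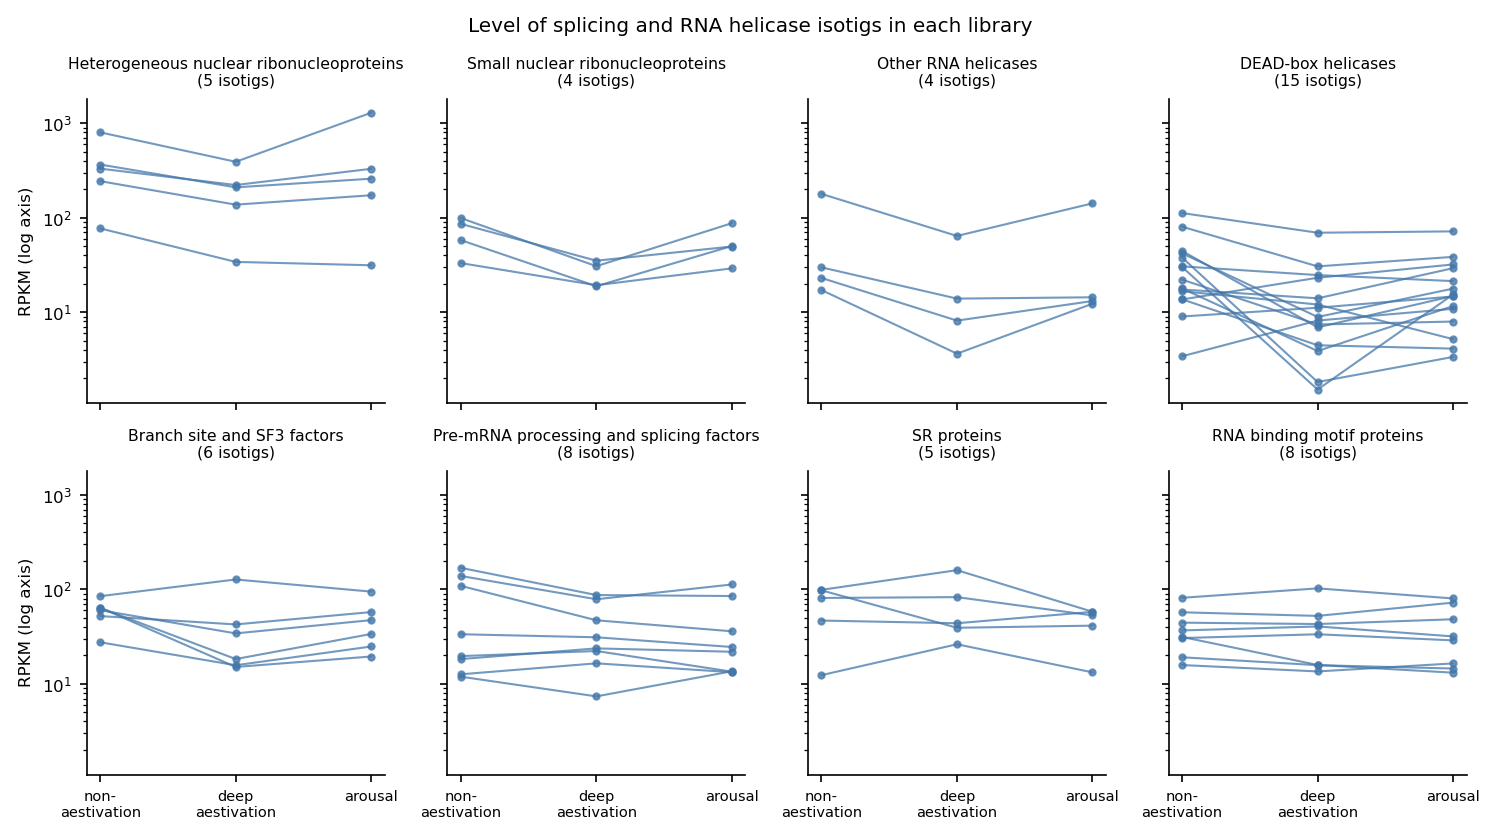
Level in RPKM (log axis) of each tested isotig in the non-aestivation, deep aestivation and arousal libraries, 1 line per isotig and 1 panel per role group of at least 4 tested isotigs. The 5 hnRNP lines, the 4 snRNP lines and the 4 lines of other RNA helicases all go down to deep aestivation, while most lines of RNA binding motif proteins stay nearly level.

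Deep aestivation against non-aestivation asked which of these genes changed when the animals had entered dormancy. Of 15 tested DEAD-box isotigs 8 were at least 2-fold lower in deep aestivation, as were all 4 of other RNA helicases, 3 snRNP proteins and both isotigs of SF3b subunit 3, while SR proteins and RNA binding motif proteins as groups were not. Of the 63 tested isotigs, 21 (33.3%) were at least 2-fold lower in deep aestivation, against 18.6% of all 10896 tested isotigs and 24.2% of the 5686 with a protein match. At least 2-fold higher were 2 (3.17%), against 13.1% of all tested isotigs and 8% of those with a protein match. With ratios centred on the median of the isotigs with a protein match, a scaling added after seeing the data, 15 members (23.8%) were lower and 5 (7.94%) higher, beside 15.4% lower and 13.6% higher of the isotigs with a protein match. The median log2 ratio of RPKM + 0.5 was -0.66 over the members, -0.36 over isotigs with a protein match and -0.12 over all tested isotigs. Summed over all 92 isotigs, the genes took 0.419% of the reads in deep aestivation (3718 reads) and 0.667% in non-aestivation (6276 reads), a rate ratio of 0.63 (0.60 to 0.65). In bulk tissue, fewer cells of a type and less RNA per cell cannot be told apart.

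Among the hnRNPs, all 5 tested isotigs were lower in deep aestivation and 2 of them passed 2-fold. hnRNP A/B had 672 reads in deep aestivation and 1461 in non-aestivation, 2.05-fold lower (1.87 to 2.25), only just past the threshold. Its log2 ratio of -1.03 was short of 2-fold with edgeR's TMM factors (-0.92) and with DESeq2's size factors (-0.92). It was also short with totals without the 10 isotigs with most reads (-0.97) and when centred (-0.68). In the same order, 19 (30.2%), 19 (30.2%), 20 (31.7%) and 15 (23.8%) members were lower. Of the isotigs with a protein match, 21.2%, 21.1%, 22.4% and 15.4% were. The smaller isotig named HnRNP-associated with lethal yellow (isotig17580), after a mouse pigment locus, had 30 reads in deep aestivation and 72 in non-aestivation, 2.26-fold lower (1.46 to 3.59). It too was short of 2-fold when centred. The larger isotig of that name (isotig13857) had 219 reads in deep aestivation and 412 in non-aestivation, a ratio of 0.56 (0.48 to 0.67). hnRNP R (isotig13907) had 329 and 609 reads in deep aestivation and non-aestivation, a ratio of 0.57 (0.50 to 0.66). hnRNP K-like (isotig15970), a binder of cytosine-rich RNA, had 237 and 375 reads in the same order, a ratio of 0.67 (0.57 to 0.79). The intervals of all 5 thus lay below 1, and their summed rate was 1.86-fold lower (1.74 to 1.98) in deep aestivation, or 1.70-fold lower (1.56 to 1.85) without hnRNP A/B.

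The snRNP proteins were lower too, 3 of 4 tested isotigs past 2-fold. snRNP polypeptide E-like (isotig20378), a protein of the Sm ring shared by several spliceosomal snRNPs, had 21 reads in deep aestivation (30.7 RPKM) and 72 in non-aestivation (99.2 RPKM), 3.23-fold lower (1.96 to 5.53). snRNP polypeptide A-like (isotig14288), named after the U1 snRNP protein that binds the U1 RNA, had 27 reads in deep aestivation and 88 in non-aestivation, 3.07-fold lower (1.98 to 4.92). The U5 snRNP 200 kDa helicase (isotig13741), known in yeast as Brr2 and needed to unwind the paired U4 and U6 RNAs, had 58 reads in deep aestivation and 151 in non-aestivation, 2.45-fold lower (1.80 to 3.38). When centred, this helicase was short of 2-fold. A separate isotig named U1 snRNP A (isotig22466) had 11 reads in deep aestivation and 20 in non-aestivation, a ratio of 0.58 (0.25 to 1.28) that its counts do not separate from 1. The 2 isotigs of the minor spliceosome protein U11/U12 35K had 7 reads in deep aestivation and 3 in non-aestivation, too few to compare.

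Factors that recognise the branch site differed among themselves. SF3b subunit 3, a part of the U2 snRNP that holds the branch site, was represented by a pair of isotigs (isotig19918 and isotig20682), which had 13 and 10 reads in deep aestivation and 48 and 45 reads in non-aestivation. Both passed 2-fold, and their sum was 3.81-fold lower (2.39 to 6.31) in deep aestivation. SF3A subunit 1 (isotig17888), of the same snRNP, pointed the other way, with 109 reads in deep aestivation and 77 in non-aestivation, a ratio of 1.5 (1.11 to 2.04) short of 2-fold. The large subunit of U2AF (isotig08859), which binds the pyrimidine tract before the 3' splice site, had 60 reads in deep aestivation and 112 in non-aestivation, a ratio of 0.57 (0.41 to 0.79). SF3b subunit 2 (isotig20025) had 30 reads in deep aestivation and 39 in non-aestivation, and SF3A subunit 3 (isotig25433) had 7 and 13, both with intervals that include 1. Between subunits of 1 complex, then, the ratios ran from 0.24 for isotig20682 to 1.5 for SF3A subunit 1, with intervals that do not overlap.

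PRP8, the large protein at the catalytic centre of the spliceosome, was named by 4 isotigs. Isotig15654 had 53 reads in deep aestivation and 130 in non-aestivation, 2.31-fold lower (1.67 to 3.24), and was short of 2-fold when centred. Isotig22302 had 50 and 103 reads in deep aestivation and non-aestivation, 1.94-fold lower (1.37 to 2.78), and isotig08833 had 56 and 64 reads, a ratio of 0.93 (0.64 to 1.35). The fourth, isotig08834, had 4 and 5 reads. Summed over the 4, PRP8 was 1.75-fold lower (1.44 to 2.13) in deep aestivation. Of the other pre-mRNA processing names, none passed 2-fold: SRp20/9G8-like (isotig20237), a small SR protein by name, had 54 reads in deep aestivation and 101 in non-aestivation, a ratio of 0.57 (0.40 to 0.80), while PRP18 (isotig14280), a factor of the second splicing step, had 32 and 30 reads.

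SR proteins as a group had 568 reads in deep aestivation and 506 in non-aestivation, a ratio of 1.19 (1.05 to 1.35). Arginine/serine-rich 4-like (isotig14146) had 236 reads in deep aestivation (160 RPKM) and 155 in non-aestivation (98.9 RPKM), a ratio of 1.62 (1.31 to 1.99). This isotig was past 2-fold when centred. Another isotig of the same protein name (isotig08471) had 113 reads in deep aestivation and 128 in non-aestivation, a ratio of 0.94 (0.72 to 1.22). Arginine/serine-rich 10-like (isotig06929), the vertebrate Tra2-beta, an activator of exon inclusion, rose 2.12-fold (1.23 to 3.77), with 42 reads in deep aestivation and 21 in non-aestivation. Arginine/serine-rich 12-like (isotig27530) fell 2.49-fold (1.32 to 4.99), with 14 reads in deep aestivation and 37 in non-aestivation, and was short of 2-fold when centred. The isotig named serine/arginine-rich splicing factor 12 (isotig06360) had 151 and 157 reads in the same order, a ratio of 1.02 (0.81 to 1.28). Without isotig14146 the SR proteins had 332 reads in deep aestivation and 351 in non-aestivation, a ratio of 1.0 (0.86 to 1.17), so the group sum rests on that isotig. With SRp20/9G8-like (isotig20237) counted as an SR protein, a choice added after seeing the data, the group had 622 reads in deep aestivation and 607 in non-aestivation, a ratio of 1.09 (0.97 to 1.22).

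RNA binding motif proteins were the steadiest group with many reads. Their 9 isotigs had 401 reads in deep aestivation and 405 in non-aestivation, a ratio of 1.05 (0.91 to 1.21), and 0 of 8 tested isotigs passed 2-fold in either direction. RBM4 (isotig13700), a regulator of alternative splicing, had 172 reads in deep aestivation and 145 in non-aestivation, a ratio of 1.26 (1.0 to 1.58). RBM35B (isotig19657), in vertebrates an epithelial splicing regulator, had 38 and 44 reads in deep aestivation and non-aestivation, a ratio of 0.92 (0.58 to 1.45). The 3 cleavage and polyadenylation factors, which form the 3' end of the mRNA, had 73 reads in deep aestivation and 90 in non-aestivation, a ratio of 0.86 (0.62 to 1.19), and 0 of 3 passed 2-fold. La family member 7, a binder of the 7SK RNA that restrains transcription elongation, had 34 reads over its 2 isotigs in deep aestivation and 23 in non-aestivation, a ratio of 1.57 (0.90 to 2.79).

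The largest falls among the named isotigs were in helicases. Other RNA helicases are here those whose names hold no DEAD, DDX, DEAH or DHX, and they may still belong to these families. Of 15 tested DEAD-box isotigs, 8 were at least 2-fold lower and 1 at least 2-fold higher in deep aestivation, and all 4 tested isotigs of other RNA helicases were at least 2-fold lower. Of those 8, the SWI/SNF-related regulator (isotig22918) and the DDX11-like protein (isotig17475) are known as a chromatin remodeler and a DNA helicase, and without them 6 of 13 were lower. Bat1 (isotig13248), a helicase of splicing and mRNA export that vertebrates call UAP56, had 141 reads in deep aestivation (64.1 RPKM) and 417 in non-aestivation (179 RPKM), 2.79-fold lower (2.30 to 3.40). RNA helicase p47 (isotig08593) had 33 reads in deep aestivation and 75 in non-aestivation, 2.14-fold lower (1.40 to 3.33), and was short of 2-fold with edgeR's, DESeq2's and centred scaling (log2 ratios of -0.96, -0.96 and -0.71). The helicase p68 (isotig15042), which vertebrates call DDX5, had 38 reads in deep aestivation and 106 in non-aestivation, 2.63-fold lower (1.80 to 3.92), and its other isotig (isotig19957) had 49 and 84 reads, a ratio of 0.62 (0.43 to 0.89). DEAD box 3-like (isotig17699), a helicase of translation and RNA metabolism, had 6 reads in deep aestivation and 41 in non-aestivation, 6.44-fold lower (2.72 to 18.6). In contrast DHX15-like (isotig20813), a DEAH-box helicase that takes spent spliceosomes apart, had 36 reads in deep aestivation and 37 in non-aestivation, a ratio of 1.03 (0.63 to 1.68). DHX38 (isotig08871), the helicase of the second splicing step known in yeast as Prp16, had 10 reads in deep aestivation and 22 in non-aestivation, and DDX41 (isotig13400) had 48 and 63, both with intervals that include 1. Summed over its 2 isotigs, however, DHX38 had 15 reads in deep aestivation and 32 in non-aestivation, 2.01-fold lower (1.06 to 4.0). The only DEAD-box isotig at least 2-fold higher was DDX46 (isotig06298), with 9 reads in deep aestivation and 4 in non-aestivation, a ratio of 2.39 (0.67 to 10.6) on few reads. Over the 3 isotigs of that name the ratio was 1.80 (0.78 to 4.41), with 17 reads in deep aestivation and 10 in non-aestivation.

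Several of the DEAD-box names are known from ribosome assembly in the nucleolus and not from splicing (DDX18, DDX27, DDX31, DDX52, DDX54, DDX55 and DDX56). This grouping by known function was made with the values known. DDX55 (isotig13319) had 8 reads in deep aestivation and 39 in non-aestivation, 4.59-fold lower (2.12 to 11.4). DDX18-like (isotig20424) had 6 and 30 reads in deep aestivation and non-aestivation, 4.71-fold lower (1.93 to 13.8). DDX27, chosen after its values were seen, had 7 reads over its 2 isotigs in deep aestivation and 40 in non-aestivation, 5.39-fold lower (2.39 to 14.2). DDX54 (isotig21140) had 7 and 6 reads and DDX56 (isotig15026) 15 and 22 reads in deep aestivation and non-aestivation, with intervals that include 1. The 10 isotigs of these names had 45 reads in deep aestivation and 150 in non-aestivation, 3.14-fold lower (2.24 to 4.49). Nucleolar members of another kind, UTP14 (isotig16239) and UTP15 (isotig19869), belong to the particle that processes the small ribosomal RNA. UTP14 had 10 reads in deep aestivation and 13 in non-aestivation, and UTP15 had 0 and 10, where a count of 0 allows up to 3 reads.

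**Figure D2:**
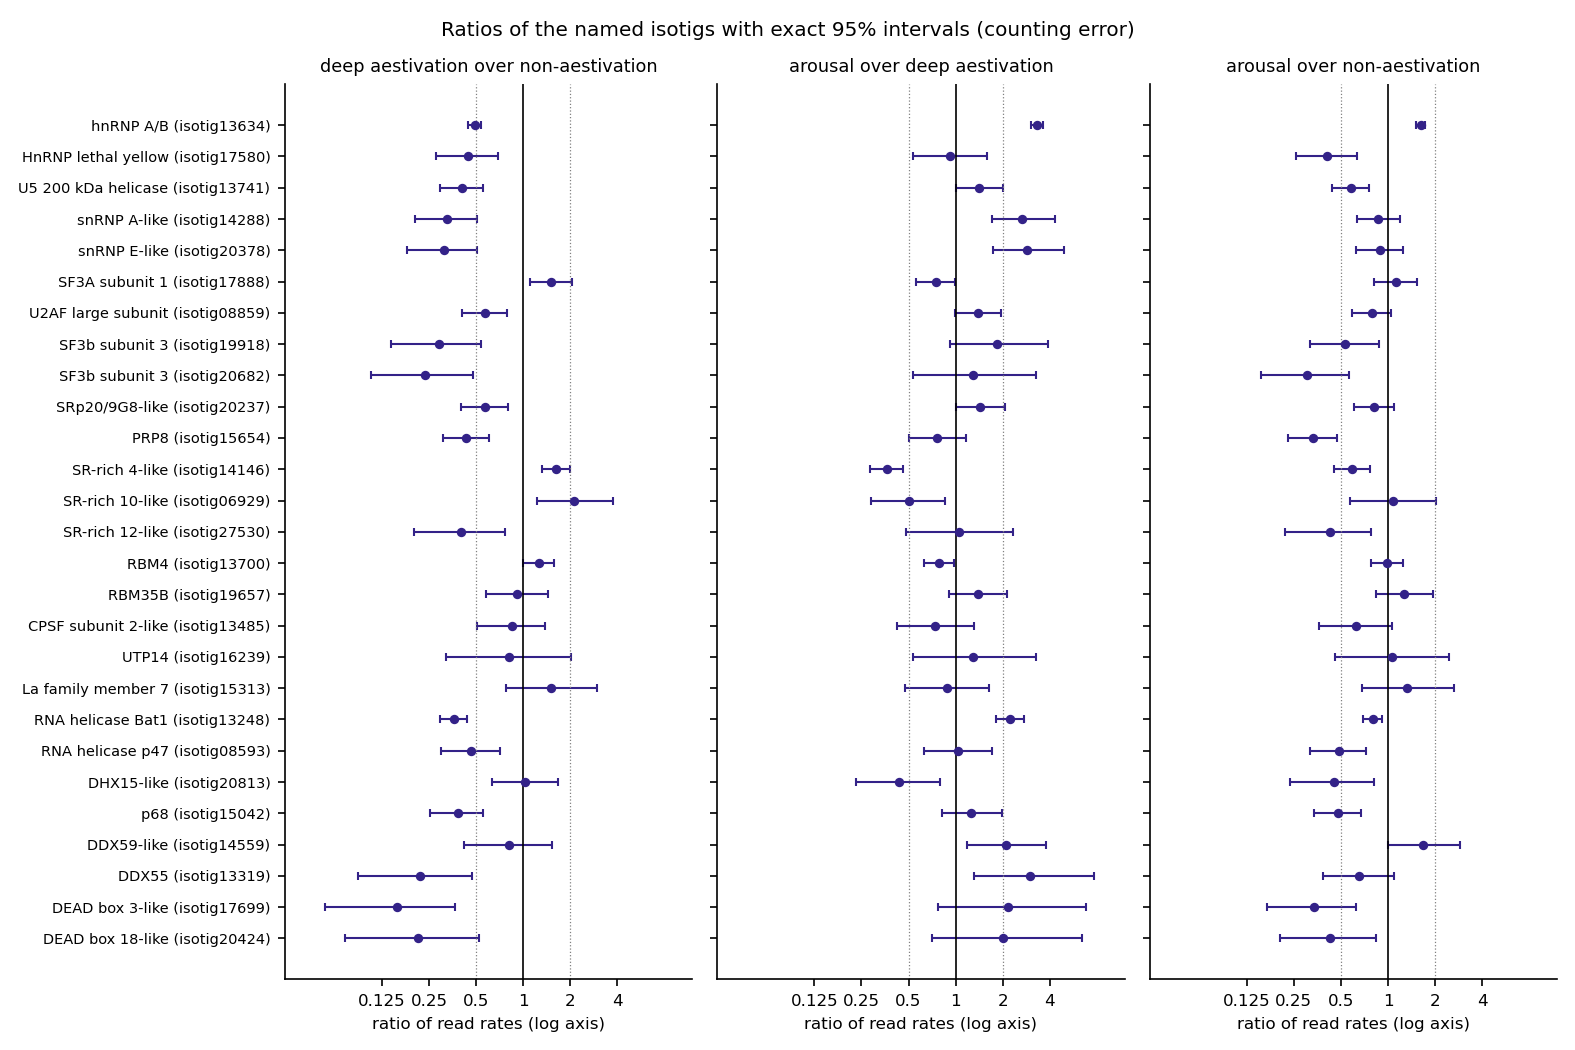
Ratio of read rates (log axis) of the 27 named isotigs for each pair of stages, with exact 95% intervals of counting error; dotted lines mark 2-fold and the solid line marks no difference. In the deep aestivation over non-aestivation panel the helicases Bat1, p47, p68, DDX55, DEAD box 3-like and DEAD box 18-like lie below the lower dotted line, and DHX15-like lies at 1.03.

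Arousal against deep aestivation asked which genes changed when the animals left dormancy. hnRNP A/B, snRNP proteins A and E, Bat1 and DDX55 were higher in arousal, and an SR protein, DHX15-like and PCF11 were lower. Of the 63 tested isotigs, 9 (14.3%) were at least 2-fold higher in arousal, against 8.06% of all tested isotigs and 7.63% of those with a protein match. At least 2-fold lower were 4 (6.35%), against 8.93% and 9.71%. The median log2 ratio was 0.30 over the members, -0.07 over isotigs with a protein match and -0.0014 over all tested isotigs. This comparison uses the same deep aestivation library as the one before it, so a low or high count in that library enters both.

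hnRNP A/B had 2410 reads in arousal and 672 in deep aestivation, a 3.30-fold rise (3.03 to 3.60), and it carried most of the change in summed reads. Over all 92 isotigs the ratio was 1.52 (1.46 to 1.59), with 6141 reads in arousal and 3718 in deep aestivation, and without hnRNP A/B it was 1.13 (1.08 to 1.18). The other 4 hnRNP isotigs stayed within 2-fold: their summed rate ratio was 1.30 (1.19 to 1.43), and hnRNP K-like had the highest ratio among them, with 382 reads in arousal and 237 in deep aestivation, a ratio of 1.48 (1.26 to 1.75).

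snRNP polypeptide E-like rose 2.85-fold (1.72 to 4.91), with 65 reads in arousal and 21 in deep aestivation. snRNP polypeptide A-like rose 2.66-fold (1.70 to 4.29), with 78 and 27 reads in arousal and deep aestivation. The U5 helicase had 89 reads in arousal and 58 in deep aestivation, a ratio of 1.41 (1.0 to 2.0), short of 2-fold. PRP8 over its 4 isotigs had 145 reads in arousal and 163 in deep aestivation, a ratio of 0.82 (0.65 to 1.03), so the proteins of the U5 snRNP were not higher together.

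Of the helicases, Bat1 rose 2.21-fold (1.81 to 2.72), with 339 reads in arousal and 141 in deep aestivation. DDX55 rose 2.99-fold (1.32 to 7.65), with 26 reads in arousal and 8 in deep aestivation, and DDX59-like (isotig14559) rose 2.08-fold (1.19 to 3.79), with 43 and 19 reads. RNA helicase p47 had 37 reads in arousal and 33 in deep aestivation, a ratio of 1.03 (0.63 to 1.70), and p68 had 107 over its 2 isotigs in arousal and 87 in deep aestivation, a ratio of 1.13 (0.85 to 1.52). Helicases that had fallen in deep aestivation thus differed in arousal, with Bat1 well above its deep aestivation level and p47 and p68 near theirs. On few reads, DEAD box 3-like (14 in arousal, 6 in deep aestivation) and isotig18270 (11 and 3) also passed 2-fold, with intervals that include 1. DDX27 (isotig20718) had 11 and 1 reads, 10.1-fold higher (1.47 to 436). Over its 2 isotigs DDX27 had 18 and 7, a ratio of 2.37 (0.94 to 6.71). The 10 isotigs with ribosome assembly names had 79 reads in arousal and 45 in deep aestivation, a ratio of 1.62 (1.11 to 2.39).

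The 4 isotigs at least 2-fold lower were an SR protein, DHX15-like, PCF11 and DDX56. Arginine/serine-rich 4-like (isotig14146) had 93 reads in arousal and 236 in deep aestivation, 2.75-fold lower (2.16 to 3.54). A longer isotig of that name (isotig08471) had 162 reads in arousal and 113 in deep aestivation, a ratio of 1.32 (1.03 to 1.69), and another (isotig08472) had 10 reads in arousal and 0 in deep aestivation. Reads that fit more than 1 isotig were not counted, so the split between isotigs of 1 name is uncertain. Summed over the name, the ratio was 0.70 (0.59 to 0.82). All 9 SR isotigs gave 0.68 (0.60 to 0.77), and 0.90 (0.77 to 1.05) without isotig14146. DHX15-like had 17 reads in arousal and 36 in deep aestivation, 2.30-fold lower (1.26 to 4.36). PCF11 (isotig13676), a factor of 3' end formation and transcription termination, had 13 and 28 reads, 2.34-fold lower (1.17 to 4.92), and was chosen after its values were seen. DDX56 was the remaining one, with 7 reads in arousal and 15 in deep aestivation, a ratio of 0.43 (0.15 to 1.12).

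**Figure D3:**
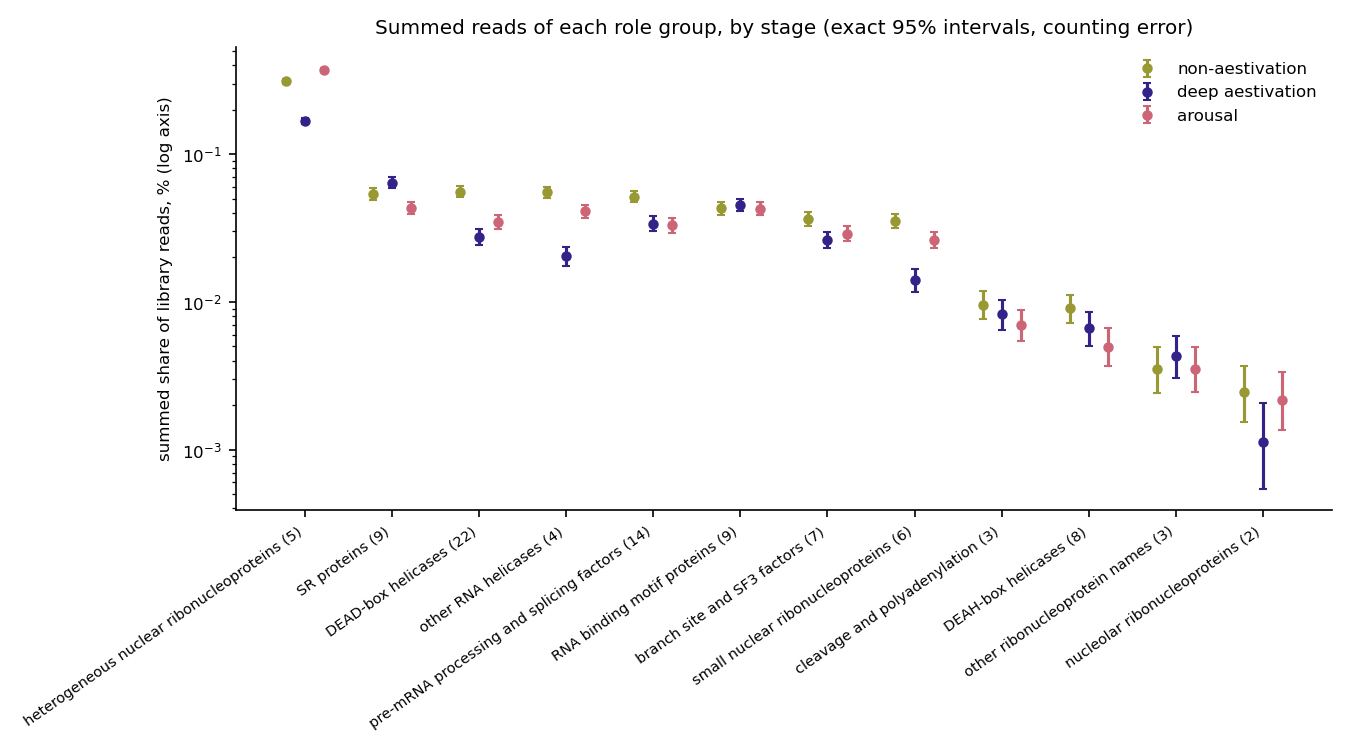
Summed share of library reads in percent (log axis) of each role group in the non-aestivation, deep aestivation and arousal libraries, with exact 95% binomial intervals; the number of isotigs stands in brackets. SR proteins are highest in deep aestivation through isotig14146 and RNA binding motif proteins nearly equal, whereas hnRNPs, DEAD-box helicases, other RNA helicases and snRNPs are lowest in deep aestivation.

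Arousal against non-aestivation asked how far the levels were back at those of active animals. PRP8, p68, RNA helicase p47, DEAD box 3-like and DHX15-like were lower in arousal. Lower too were hnRNP R and both isotigs named HnRNP-associated with lethal yellow. hnRNP A/B was above its non-aestivation level, and snRNP proteins A and E and hnRNP K-like were near theirs. Of the 63 tested isotigs, 15 (23.8%) were at least 2-fold lower in arousal, against 18.8% of all tested isotigs and 25.6% of those with a protein match, and 2 (3.17%) were at least 2-fold higher, against 12.5% and 6.68%. Centred on the isotigs with a protein match, 7 (11.1%) were lower and 5 (7.94%) higher, beside 14.4% and 12.4% of the isotigs with a protein match. The share of lower members is near that of isotigs with a protein match, and so is the median log2 ratio of -0.44, against -0.40 over isotigs with a protein match and -0.13 over all. The non-aestivation library is the same as in the first comparison.

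PRP8 had 145 reads over its 4 isotigs in arousal and 302 in non-aestivation, 2.13-fold lower (1.74 to 2.62), and its isotig15654 had 44 and 130 reads, 3.02-fold lower (2.13 to 4.36). SF3b subunit 3 had 40 reads over its pair of isotigs in arousal and 93 in non-aestivation, 2.38-fold lower (1.63 to 3.54). The U5 helicase had 89 reads in arousal and 151 in non-aestivation, 1.74-fold lower (1.33 to 2.28). SF3A subunit 1 differed from these, with 88 reads in arousal and 77 in non-aestivation, a ratio of 1.12 (0.81 to 1.54).

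Among the helicases, p68 (isotig15042) had 52 reads in arousal and 106 in non-aestivation, 2.09-fold lower (1.48 to 2.96), and p47 had 37 and 75 reads, 2.07-fold lower (1.38 to 3.16). Both were short of 2-fold with edgeR's TMM factors, at log2 ratios of -0.93 for p68 and -0.91 for p47, and with DESeq2's factors, at -0.93 and -0.91, and also when centred, at -0.65 and -0.62. The other p68 isotig (isotig19957) had 55 reads in arousal and 84 in non-aestivation. Summed over both, p68 was 1.82-fold lower (1.43 to 2.32), short of 2-fold. DEAD box 3-like had 14 reads in arousal and 41 in non-aestivation, 3.0-fold lower (1.60 to 5.95), and DDX18-like had 13 and 30, 2.36-fold lower (1.19 to 4.93). DHX15-like had 17 reads in arousal and 37 in non-aestivation, 2.23-fold lower (1.22 to 4.22). DDX18-like and DHX15-like were also short of 2-fold when centred. Bat1 was closer to its non-aestivation level, with 339 reads in arousal and 417 in non-aestivation, a ratio of 0.80 (0.69 to 0.92). The 2 isotigs at least 2-fold higher, both chosen after their values were seen, were DDX23-like (isotig03818), a helicase that helps exchange U1 for later snRNPs at the 5' splice site, with 24 reads in arousal and 10 in non-aestivation (ratio 2.35, 1.08 to 5.50), and DDX46 (isotig06298), which acts with the U2 snRNP, with 13 and 4 reads (ratio 3.18, 0.98 to 13.4). Over its 3 isotigs DDX46 had 18 reads in arousal and 10 in non-aestivation, a ratio of 1.76 (0.77 to 4.27) short of 2-fold.

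snRNP polypeptide A-like had 78 reads in arousal and 88 in non-aestivation, a ratio of 0.87 (0.63 to 1.19), and polypeptide E-like 65 and 72, a ratio of 0.88 (0.62 to 1.25). hnRNP K-like had 382 reads in arousal and 375 in non-aestivation, a ratio of 1.0 (0.86 to 1.15). hnRNP A/B had 2410 reads in arousal and 1461 in non-aestivation, a ratio of 1.61 (1.51 to 1.72). That was short of 2-fold but past it when centred. The other hnRNPs were lower. The smaller isotig named HnRNP-associated with lethal yellow (isotig17580) had 30 and 72 reads in the same order, 2.46-fold lower (1.58 to 3.89). When centred it was short of 2-fold. The larger one (isotig13857) had 299 and 412, and hnRNP R 441 and 609, both a ratio of 0.71 with intervals below 1. Without hnRNP A/B, the summed hnRNP ratio was 0.77 (0.71 to 0.83). Arginine/serine-rich 4-like (isotig14146) had 93 reads in arousal and 155 in non-aestivation, 1.71-fold lower (1.31 to 2.23), and RBM4 had 146 and 145 reads, a ratio of 0.98 (0.78 to 1.25). The 9 RNA binding motif isotigs together had 412 reads in arousal and 405 in non-aestivation, a ratio of 0.99 (0.86 to 1.14). In that group 1 isotig passed 2-fold, RNA binding motif protein 16-like (isotig11551), chosen after its values were seen, with 9 reads in arousal and 21 in non-aestivation. When centred, that isotig was short of 2-fold.

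**Figure D4:**
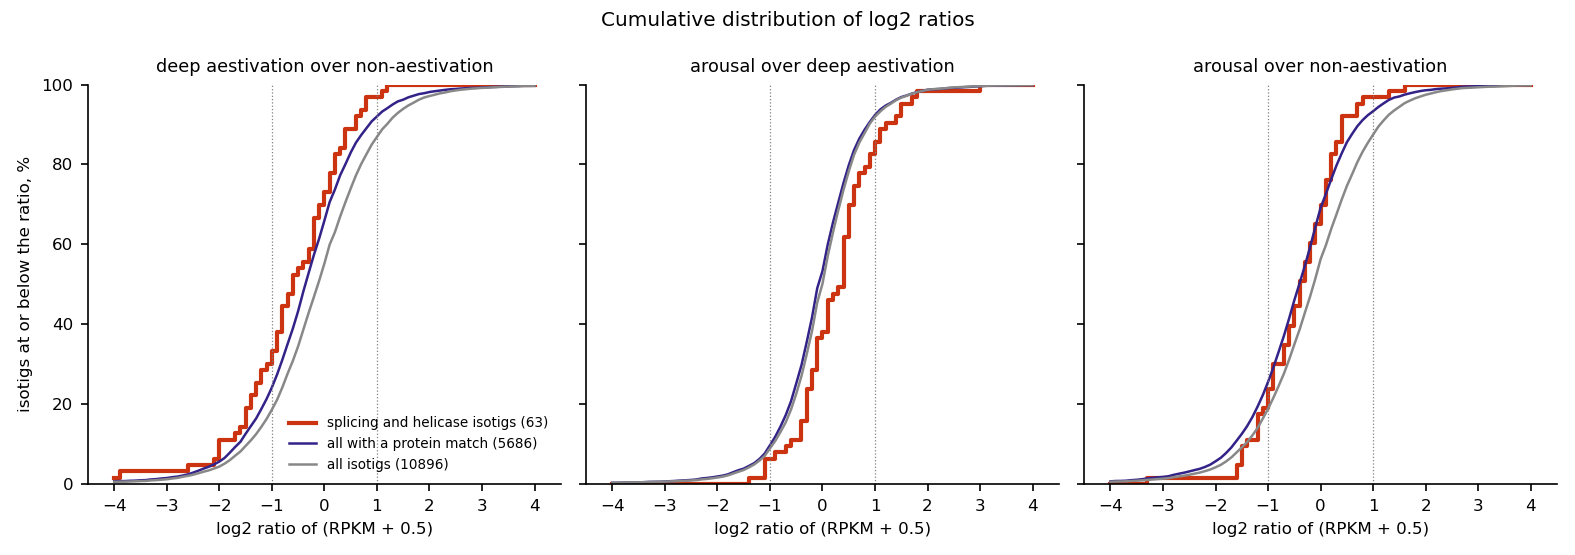
Cumulative share of isotigs (percent) at or below each log2 ratio of RPKM + 0.5, for the 63 splicing and helicase isotigs, the 5686 tested isotigs with a protein match and all 10896 tested isotigs; dotted lines mark 2-fold. The member curve lies left of both others over most of deep aestivation over non-aestivation (median -0.66), right of them in arousal over deep aestivation (median 0.30), and close to the protein-match curve in arousal over non-aestivation (median -0.44).

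Neighbouring steps of mRNA metabolism, taken by name outside the rule, were read the same way. Of 9 tested isotigs with names of mRNA export factors or exportins, 5 were at least 2-fold lower and 0 higher in deep aestivation, where 18.6% of all tested isotigs and 24.2% of those with a protein match were lower. Of the 5, only THO complex 2 (isotig13564), with 17 reads in deep aestivation and 38 in non-aestivation, is an mRNA export factor. The others were 3 isotigs of exportin-5, the exporter of microRNA precursors, and CRM1 (isotig23190), a general protein exporter, with 8 reads in deep aestivation and 24 in non-aestivation. Nuclear RNA export factor 1 (isotig15129), the main mRNA exporter, had 17 and 25 reads in the same order and did not pass 2-fold, nor did either tested isotig of THO complex subunit 1. In arousal against deep aestivation 0 of the 9 passed 2-fold either way, with a median of 0.58. Splicing proteins that the rule misses, 5 of them LSm isotigs of the U6 snRNP, had 228 reads over 11 isotigs in deep aestivation and 391 in non-aestivation, a ratio of 0.62 (0.52 to 0.73), and the 1 of 8 tested at least 2-fold lower was LSM14A (isotig16037), a protein of cytoplasmic RNA granules and not of the U6 snRNP, with 35 and 76 reads. Factors of the exon junction and of nonsense-mediated decay, which reads the marks that splicing leaves, had 200 reads over 4 isotigs in deep aestivation and 160 in non-aestivation, a ratio of 1.33 (1.07 to 1.64). The 1 of 3 tested past 2-fold was UPF3B-like (isotig13786), with 94 and 37 reads, where 13.1% of all tested isotigs and 8% of those with a protein match were higher. The other isotigs did not rise together. Isotig14419 had 39 and 65 reads in deep aestivation and non-aestivation, isotig16804 had 67 and 56, and mago-nashi B-like (isotig03297) had 0 and 2. These export, decay and LSm names were chosen after their values were seen. RNA polymerase II and elongation names had 598 reads over 31 isotigs in deep aestivation and 719 in non-aestivation, a ratio of 0.88 (0.79 to 0.98), and deadenylation and decay names 115 and 124 over 8 isotigs, a ratio of 0.98 (0.76 to 1.28). Kinases of SR proteins had 26 reads in deep aestivation and 17 in non-aestivation over 2 isotigs. The names of initiation factors that the rule leaves out had 1270 and 2459 reads over 34 isotigs, 1.82-fold lower (1.70 to 1.95) in deep aestivation, with 10 of 24 tested at least 2-fold lower, against the same 24.2% of isotigs with a protein match.

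Summed RPKM of marker names of other cells was below that of non-aestivation in deep aestivation for germ cells, coelomocytes, cilia and neurons. For muscle names the summed RPKM was nearly equal, but their summed read rate was lower too. They had 2951 reads in deep aestivation and 3572 in non-aestivation, a ratio of 0.88 (0.83 to 0.92). Germ cell names summed to 122 RPKM (non-aestivation), 24.2 RPKM (deep aestivation) and 13.9 RPKM (arousal), with a read in 8, 3 and 3 of 8 isotigs. All 61 reads of bindin, a sperm protein, and all 18 of synaptonemal complex protein 3, of meiotic chromosomes, came from the non-aestivation library. The 3 isotigs with a read in deep aestivation did not fall in reads. MRE11 (isotig16176) had 16 there and 15 in non-aestivation, and gave 15.2 of the 24.2 RPKM. Isotig24105, a putative meiosis specific protein, had 3 and 3, and isotig27376, a tudor and KH domain protein, had 1 and 1. Coelomocyte names (immune cells of the body fluid) summed to 5163 RPKM (non-aestivation), 2128 RPKM (deep aestivation) and 2028 RPKM (arousal) over 30 isotigs. A single isotig of complement component 3-2 (isotig29329) gave 3075, 572 and 560 RPKM of these in the same order, and without it, a sum added after seeing the data, the names stood at 2088, 1555 and 1469 RPKM. Without it their read rate in deep aestivation over non-aestivation was 0.88 (0.83 to 0.92). Muscle names stood at 1911, 1925 and 1587 RPKM over 43 isotigs in the same order of stages, cilia names at 340, 267 and 174 RPKM over 39, and neuron names at 655, 508 and 501 RPKM over 18. The median log2 ratios of deep aestivation over non-aestivation were -0.75 for coelomocyte, -0.33 for muscle, 0.0051 for cilia and 0.15 for neuron names. Their part in the lower helicase, snRNP and hnRNP levels of deep aestivation was not tested. No marker that defines the respiratory tree is known from the sources used here, so the tissue label was not checked against one.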

How the data were processed

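Per the file headers, the authors deposited for every isotig a count of its uniquely mapped reads, an RPKM value made from that count, and the percent of its bases covered. The submitters' processing notes name CASAVA 1.5; no source used here names the aligner, and the labels' protocols (oligo(dT) selection, random hexamer priming) name no strand-keeping step, so overlapping opposite transcripts cannot be told apart. Recomputed from the counts, 100% of the RPKM values matched within a relative 1e-09, and isotigs that a table does not list were given 0 reads.

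Isotigs with at least 20 reads summed over the 3 libraries were compared, and a difference was called at 2-fold on log2(RPKM + 0.5), a scale that understates the change of low genes. Ratios are of read rates, with exact conditional binomial 95% intervals. With 1 library per stage no replicate test was made. Python 3.11.15 (pandas 2.3.3, scipy 1.17.1, matplotlib 3.10.9) was used. R 4.3.3 with edgeR 4.0.16 and DESeq2 1.42.0 gave scaling factors only. The calculation was checked on simulated data.

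Role groups were assigned by protein name. Named isotigs are, per role group, the one with most reads and those with the largest log2 ratio among isotigs whose higher library had 50 reads or more, and, per comparison, the 8 largest rises and 8 largest falls past 2-fold whose higher library had 30 reads or more; isotigs that share a protein name with these were added for sums. Further isotigs were named to complete a role group, with their values known. Isotigs under 1 name may be pieces or variants of 1 gene. Members, lists and groupings were chosen with earlier results of these data known. Sequences and genome positions of the isotigs are not used here.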

Additional observations from a re-analysis of the deposited data

How the results depend on the processing

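Of the counts of called isotigs and medians, those with pseudocounts of 0.1 and 1, edgeR or DESeq2 scaling, totals without the 10 isotigs with most reads, or without the 6 names outside RNA processing stayed within 1.5 times or the same direction. Without the filter, all 92 isotigs entered and 9 were higher in deep aestivation over non-aestivation. In arousal over deep aestivation 16 (17.4%, against 13.9% of isotigs with a protein match) were higher and 11 lower. In arousal over non-aestivation 8 were higher and 23 lower. Unlike the 16, the 9, 11, 8 and 23 were each a smaller share than among isotigs with a protein match at the same setting. With at least 100 reads, 26 isotigs remained. In deep aestivation over non-aestivation 0 were higher and 9 (34.6%) lower, against 7.88% and 18.7% of isotigs with a protein match. In arousal over deep aestivation 4 (15.4%) were higher and 1 (3.85%) lower, against 3.99% and 5.14%. In arousal over non-aestivation 0 were higher and 4 (15.4%) lower, against 6.25% and 18.3%. Requiring the interval to exclude 1 left 1 (1.59%) higher in deep aestivation over non-aestivation, against 6.35% of isotigs with a protein match. It also left 1 (1.59%) higher in arousal over non-aestivation, against 5.21%. Sums over protein names gave 0 and 1 (1.82%) in the same order, against 6.43% and 5.17%. Centring on isotigs with a protein match, added after seeing the data, gave 5 higher in each of these comparisons, 7 lower in arousal over non-aestivation and a median there of -0.037. The summed ratio of all members in arousal over non-aestivation was 0.96, and 0.76 (0.73 to 0.79) without hnRNP A/B. With all members it turned from 0.96 to 1.04 with edgeR's factors, 1.04 with DESeq2's and 1.27 when centred. The sum without hnRNP A/B was not rescaled. When centred, branch site factors gave 1.05 and SR proteins 1.07. The cause was not tested. TMM moved the all-isotig median of deep aestivation over non-aestivation from -0.12 to -0.01. No paired analysis was possible because each stage has 1 library, which also leaves no library to leave out. Depth limits isotigs with few reads: DDX46 (isotig06298), with 26 reads in all, has an interval of 0.67 to 10.6 for deep aestivation over non-aestivation.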

Other observations

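Gene ontology terms deposited with the isotigs put 61 isotigs in the spliceosomal complex, of which 18 are among the 92 and 43 are not matched by name. This list of 43 was chosen after the data were seen. Of its 29 tested isotigs, 2 passed 2-fold upward and 9 downward in deep aestivation over non-aestivation, with a median log2 ratio of -0.54, beside 8% and 24.2% of the tested isotigs with a protein match, and 5 were higher and 0 lower in arousal than in deep aestivation, with a median of 0.25, beside 7.63% and 9.71%. Its reads summed to 710 in deep aestivation and 1051 in non-aestivation, 1.40-fold lower (1.27 to 1.54), and to 913 in arousal. Cdc5l (isotig23395), a protein of the complex that joins the spliceosome at activation, had 21 reads in deep aestivation and 31 in non-aestivation, and peptidyl-prolyl isomerase H-like (isotig18348), a partner of the U4/U6 snRNP, had 4 and 11. Both were chosen after their values were seen. Several of the isotigs with most reads carry no informative name, so that part of the spliceosome of this animal lies outside a rule on names.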
